A study of Mus musculus with 6 samples.

Results

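The microglia genes described here are Cx3cr1, Csf1r, Aif1, Itgam, P2ry12, Tmem119, C1qa, C1qb, C1qc and Trem2. They were chosen by name, and a probe was counted where the gene name in the scanner files equalled a member. This gave 15 probes for all 10 genes, out of 55681 probes that are not controls and 34797 gene names. Their RNA was measured in the cerebellum of C57BL/6J pups at postnatal day 1, on 6 single-colour Agilent arrays. Dams received an amino acid-based AIN-93G diet from a week before mating through pregnancy, with folic acid (FA) at 2 mg per kg of diet in the 2 mg FA group and at 20 mg per kg in the 20 mg FA group. For each sex, the 2 mg FA group had 1 array and the 20 mg FA group had 2 arrays, and all pups were of the same strain and age. Each array was hybridized with pooled RNA of 3 pups, each from a different dam. A spread between arrays of the same sex and dose was thus measured at 20 mg but not at 2 mg. RNA extraction at the higher dose was repeated from a different batch, according to the paper. The higher-dose arrays of each sex also differed in slide and scan day. Their spread therefore holds pool, extraction batch, slide and scan day together, and these cannot be told apart. A field of the sample labels gives whole brain as the tissue, whereas the titles give cerebellum.

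Microglia are the resident macrophages of the brain. They derive from yolk sac precursors that enter the neural tube before birth. In the developing brain they clear dying neurons and debris and prune synapses. Their survival depends on the receptor CSF1R and its ligands CSF1 and IL-34. CX3CR1 binds the neuronal chemokine fractalkine (Cx3cl1), and P2RY12 senses ADP released by damaged cells. TREM2 is a lipid-binding receptor that signals through the adaptor TYROBP. The 3 chains of C1q, which start the classical complement pathway and tag material for removal, are made mainly by microglia in the brain. Most of these genes are also expressed by other macrophages, and in pooled tissue RNA fewer microglia and less RNA per cell cannot be told apart.

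The signals rest on probes of 60 bases, and the first 30 bases are shown for those that decide the results, 5′ to 3′, because the probes of Itgam differ in kind. Capitals mark a run of CA dinucleotides. The Itgam probes are called 1 to 3 by decreasing signal and lie on the plus strand of chromosome 7 in mm9, the build of the array design.
Itgam probe 1, chr7:135261755-135261814: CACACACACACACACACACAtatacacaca
Itgam probe 2, chr7:135260275-135260334: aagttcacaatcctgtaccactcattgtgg
Itgam probe 3, chr7:135212140-135212199: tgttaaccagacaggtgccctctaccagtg
Trem2, chr17:48491537-48491596, plus strand: acagctggatggttgtctgtcaacttctgc
C1qa, chr4:136452409-136452468, minus strand: ccggccagctttctcagccattcggcagaa
C1qb, chr4:136436578-136436637, minus strand: attctggggactacggggctacacagaaag
C1qc, chr4:136445766-136445825, minus strand: tctgggaaccacctaatggtattattcctg
The 3 C1q probes lie within 15.9 kb on the same strand, and C1qb, C1qc and C1qa are neighbouring genes. Itgam probe 1 starts with 20 bases of CA repeat, and neither of the other Itgam probes holds more than 4 such bases in a row.

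RefSeq promoters (GRCm38.p6, from 250 bases before to 50 after the start of a gene) were at hand for 7 of the 10 genes: P2ry12, C1qb, C1qc, Itgam, Cx3cr1, Aif1 and Trem2. They were searched on both strands for 2 overlapping forms of the purine-rich core bound by PU.1, the transcription factor that directs macrophage and microglia development. The letters GAGGAA were found in 5 of these 7 promoters (C1qb, C1qc, Itgam, Aif1 and Trem2) and in 28.3% of all 32851 promoters. The letters AGGAAGT were found in 3 of 7 (P2ry12, C1qb and C1qc) and in 9.35% of all promoters. The stretch around this match is shown for both C1q chains that hold it, with the match in capitals on the opposite strand as ACTTCCT.
C1qb, chr4:136886214-136886293, minus strand: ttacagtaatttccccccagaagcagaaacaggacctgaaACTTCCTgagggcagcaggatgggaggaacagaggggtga
C1qc, chr4:136893070-136893149, minus strand: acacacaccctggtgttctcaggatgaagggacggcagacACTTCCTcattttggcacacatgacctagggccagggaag
The match ends 46 bases before the start of C1qb and 188 bases before that of C1qc. It describes these letters and not a bound site.

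Values below are log2 processed signals after quantile normalization over the 6 arrays, with a floor at a signal of 10. The array labelled female 20 mg replicate 2 stood apart: 23.3% of its probes were well above background, the software's flag for a measured signal, against 51.1% to 71.9% on the other 5. Its median processed signal was 5.17, against 41.8 to 178. On this array Eif2s3y, a gene of the Y chromosome, was at 10.12 and well above background, which goes against its sex label. Of other Y genes, Ddx3y (7.71) and Uty (6.34) were not well above background and Kdm5d was at the floor. Xist, the RNA of the inactive X chromosome, was at 7.27 and not well above background. The lowest value with that flag on this array was 8.82, so the flag cannot decide whether Xist was absent. The other female arrays had Xist at 9.67 and 10.84, and Eif2s3y at the floor at 2 mg and at 4.04 on 20 mg replicate 1, the last well above background. Results that rest on this array, called the dim array here, are therefore given with and without it. Of 13 cerebellar markers, 12 were well above background on each of the 5 bright arrays, and of 10 forebrain transcription factors 4 were.

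All 10 microglia genes were well above background on each of the 5 bright arrays by their brightest probe. On the dim array 6 of 10 were, and P2ry12, Tmem119, C1qa and C1qb were not. Itgam is counted here by its repeat probe 1, whereas its probes 2 and 3 were not well above background on male 20 mg replicate 1 or the dim array. Over all 15 probes the counts were 15 on each bright array but male 20 mg replicate 1, with 13, and 7 on the dim array. No member probe was saturated. The brightest probe gives the value of a gene unless another is named, and the level of one gene is not compared with that of another, since probes differ in brightness.

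**Figure D1:**
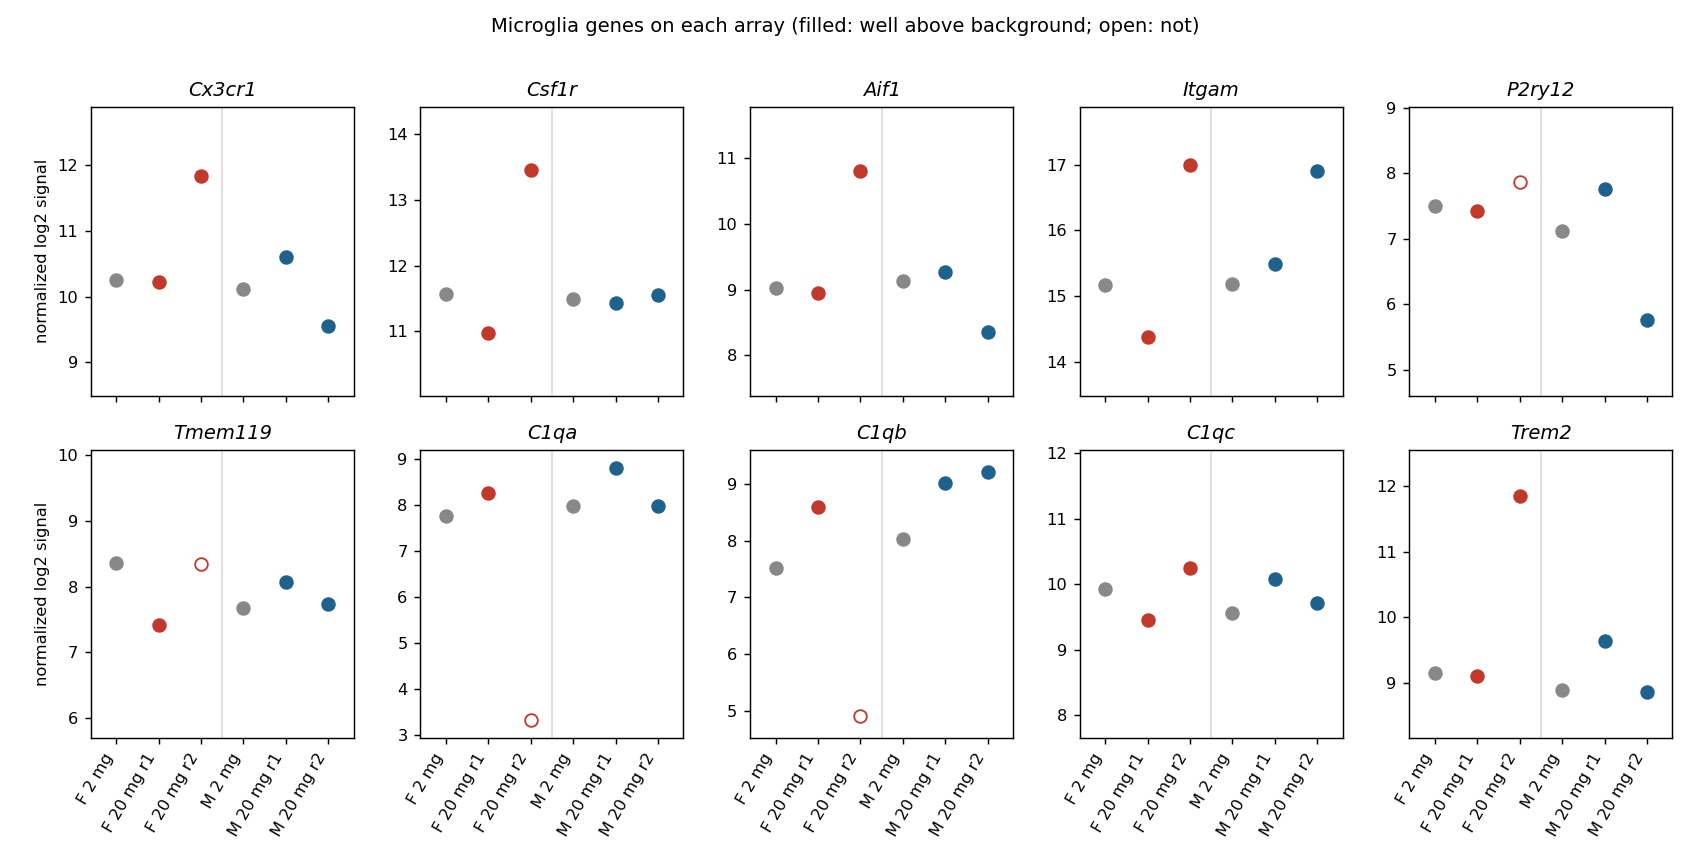
Normalized log2 signal of the brightest probe of each microglia gene on the 6 arrays, females (F) left of the line and males (M) right of it, grey at 2 mg FA and coloured at 20 mg FA. Each point is 1 pool of 3 pups, filled where the probe was well above background, and r2 of the females is the dim array. Each panel has its own axis. C1qa and C1qb are lowest and Csf1r, Aif1 and Trem2 highest on the dim array, and the other 5 arrays lie closer together for these genes.

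Among the receptors, Csf1r, the CSF1 and IL-34 receptor, was at 11.57 on the female 2 mg array and at 10.98 and 13.46 on the female 20 mg arrays. In males it was at 11.50 at 2 mg and at 11.43 and 11.55 at 20 mg. The 3 male arrays thus lay within the smallest spread of any member (SD 0.0846 between the 20 mg arrays, n = 2), and the mean difference was -0.01. In females the difference was 0.65, below the SD of 1.76 (n = 2), and it was -0.59 on replicate 1 and 1.89 on the dim array.

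Cx3cr1, the fractalkine receptor, was at 10.25 at 2 mg and at 10.23 and 11.83 at 20 mg in females. The male arrays gave 10.11 at 2 mg and 10.60 and 9.55 at 20 mg. The male 20 mg arrays lay on either side of the 2 mg array, and the bright female arrays differed by 0.02. P2ry12, the ADP receptor, was at 7.51 at 2 mg and at 7.43 and 7.86 in the female 20 mg group, the last value not well above background. Its male values were 7.12 at 2 mg and 7.76 and 5.76 at 20 mg. The last array was thus the lowest of the 6 for this gene, 1.35 below the 2 mg array, whereas the other male 20 mg array was 0.64 above it.

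Trem2 was at 9.15 at 2 mg and at 9.11 and 11.85 at 20 mg in females. The male 2 mg array gave 8.89 and the male 20 mg arrays 9.63 and 8.86. The mean female difference of 1.33, or 2.52-fold, passed the threshold of 2.5-fold and came from the dim array, which was 2.70 above the 2 mg array. The bright female arrays differed by 0.04. Aif1, which encodes the actin-binding protein IBA1 that is widely used to stain microglia, was at 9.03 at 2 mg and at 8.95 and 10.81 at 20 mg in females. Male values were 9.13 at 2 mg and 9.27 and 8.36 at 20 mg, again on both sides of the 2 mg array.

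Tmem119, a transmembrane protein used to tell microglia from other macrophages, was at 8.37 at 2 mg and at 7.41 and 8.34 at 20 mg in females, the last value not well above background. For males the values were 7.68 at 2 mg and 8.08 and 7.73 at 20 mg. Both female 20 mg arrays lay below their 2 mg array (by 0.96 and 0.03) and both male arrays above theirs (by 0.40 and 0.06). The female minus the male difference was -0.72 ± 2.65 (SE; limma, adjusted p = 1 for the interaction of dose and sex).

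Of the C1q chains, C1qb was above its 2 mg array by close to 1 on every bright 20 mg array. It was at 7.52 at 2 mg and at 8.59 and 4.92 at 20 mg in females, the last value not well above background. In male pups it was at 8.04 at 2 mg and at 9.02 and 9.21 at 20 mg. Each of the 3 bright 20 mg arrays was therefore above its 2 mg array, by 1.07, 0.99 and 1.17. The male difference was 1.08 or 2.11-fold, larger than the SD of 0.132 between the 20 mg arrays (n = 2), under the threshold of 2.5-fold, and not called by limma (SE 2.01, adjusted p = 1). The dim array was 2.60 below the female 2 mg array.

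C1qa was at 7.77 at 2 mg and at 8.25 and 3.32 at 20 mg in females, the last being the floor and not well above background. The male values were 7.97 at 2 mg and 8.81 and 7.99 at 20 mg. The bright arrays were 0.48, 0.84 and 0.02 above their 2 mg arrays. The mean female difference was -1.98, or 3.95-fold lower, and rested on the dim array. Only 1 of the 2 female 20 mg arrays measured C1qa and C1qb above background.

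C1qc was at 9.93 at 2 mg and at 9.45 and 10.25 at 20 mg in females. Male arrays read 9.56 at 2 mg and 10.08 and 9.72 at 20 mg. Its bright 20 mg arrays differed from their 2 mg arrays by -0.48, 0.52 and 0.16, so female replicate 1 went the other way from C1qa and C1qb. The C1qc probe is printed on the array 10 times, and its spots varied by a coefficient of variation of 1.61% to 4.22% on the bright arrays and 18.3% on the dim array. Spots of an array are not replicates of the diet.

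Over the 5 bright arrays, the 20 mg arrays were all above both 2 mg arrays for 2 of the 10 genes, C1qa and C1qb. Of all 37247 probes tested, 8.03% were. For C1qa the nearest arrays of the 2 doses were 7.99 and 7.97, and for C1qb 8.59 and 8.04. No member had all bright 20 mg arrays below both 2 mg arrays, against 7.02% of all probes.

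Itgam, which encodes the CD11b chain of complement receptor 3, gave opposite values by probe. Probe 1, the CA repeat shown above, was at 15.17 at 2 mg and at 14.38 and 16.99 at 20 mg in females. In males it was at 15.18 at 2 mg and at 15.50 and 16.91 at 20 mg, a difference of 1.02 (SD 1.00, n = 2). The array design held 33 other probes with at least 8 CA units in a row. Their median was at 14.12 at 2 mg and at 13.13 and 16.31 at 20 mg in females, and at 13.83, 14.65 and 16.19 on the same male arrays. The Itgam probe stayed 0.68 to 1.35 above that median on all 6 arrays and followed its order, except for the 2 mg arrays, which were nearly equal for Itgam.

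Probe 2 of Itgam was at 6.38 at 2 mg and at 6.34 and 4.37 at 20 mg in females. On the male arrays it was at 6.29 at 2 mg and at 5.19 and 6.65 at 20 mg. Probe 3 was at 5.90, 5.69 and 3.56 in females and at 5.62, 4.17 and 5.53 in males, in the same order of arrays. Neither probe was well above background on the dim array or on male 20 mg replicate 1. The male difference was thus 1.02 by the repeat and -0.37 and -0.77 by probes 2 and 3, and the female difference was 0.51 against -1.02 and -1.27, so that no direction of Itgam is given here. No probe of the other 18 gene lists used below held such a repeat where it stood for its gene.

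**Figure D2:**
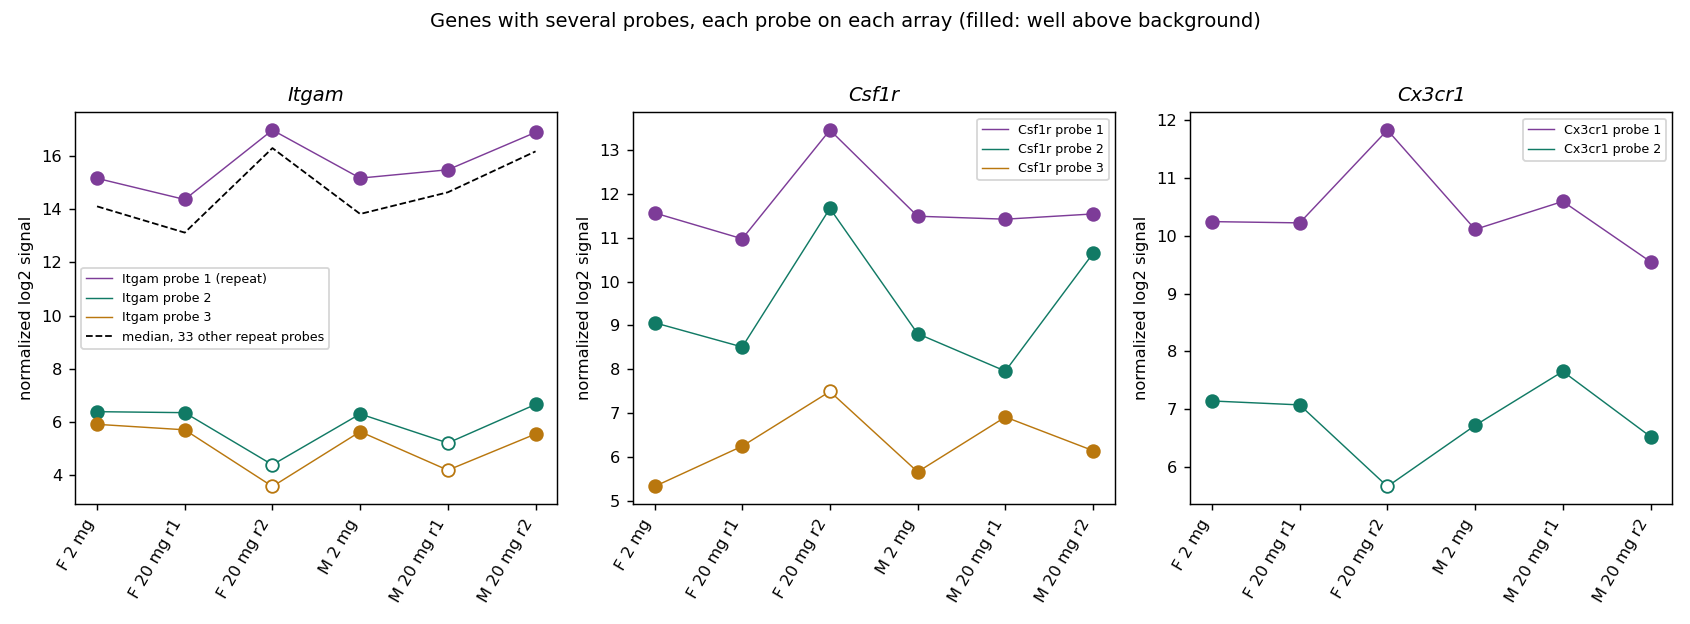
Normalized log2 signal of every probe of Itgam, Csf1r and Cx3cr1, the 3 genes with several probes, on each array, probes numbered by decreasing signal and filled where well above background. The dashed line is the median of the 33 other CA repeat probes, which runs 0.68 to 1.35 below Itgam probe 1 while probes 2 and 3 go down on the dim array.

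The further probes of the receptors also differed. Probe 2 of Csf1r was at 9.06 at 2 mg and at 8.51 and 11.67 at 20 mg in females. Its male values were 8.81 at 2 mg and 7.96 and 10.65 at 20 mg, so the male 20 mg arrays were 2.69 apart by this probe and 0.12 apart by the brightest. Probe 3 of Csf1r was above its 2 mg array on all 20 mg arrays, by 0.92 and 2.17 in females and 1.25 and 0.49 in males, and was not well above background on the dim array. Probe 2 of Cx3cr1 was 0.94 above and 0.19 below the 2 mg array in males, close in direction to the brightest probe (0.49 above and 0.56 below). On the dim array, where probe 2 was not well above background, it was 1.48 below the female 2 mg array and the brightest probe 1.59 above.

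By the fold rule of the methods, a mean difference of at least 2.5-fold after a filter on variation, 0 of the 10 genes were altered in male pups. Of all probes tested 2.97% were called lower and 1.7% higher in males. In female pups 1 gene was called lower (C1qa) and 1 higher (Trem2), while 15.3% of all probes were called lower and 5.42% higher. Without the dim array neither was called, and their differences became 0.48 and -0.04. The limma fit, which sets the difference against the spread between pools, called 0 members in males, in females, over both sexes or for the interaction. The share called over all probes was also 0% in each, and 0 members had an unadjusted p under 0.05, against 74, 161, 145 and 51 of all probes. Standard errors of the members by their brightest probe were 1.05 to 2.25 in each sex.

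Against its 2 mg array, male 20 mg replicate 1 was higher for 9 of the 10 genes, with a median of 0.50, while the median of all probes was 0.09. Male replicate 2 was higher for 6 of 10, with a median of 0.04 against -0.16. Female replicate 1 was higher for 2 of 10, C1qa and C1qb, with a median of -0.08 against 0.03. The dim array was higher for 7 of 10, with a median of 0.97 against -0.48. Of all probes tested, 53.6% were higher on male replicate 1, 43.2% on male replicate 2, 52.2% on female replicate 1 and 41.0% on the dim array. The counts of members take Itgam by its repeat probe. With its probe 2, male replicate 1 was higher for 8 of 10 and the dim array for 6 of 10, and the median of the dim array became 0.34. The 20 mg arrays of a sex thus disagreed in how many members were higher. The mean difference exceeded the SD between the 20 mg arrays for C1qb and C1qc in males and for 0 genes in females. Itgam exceeded it in males by the repeat probe (1.02 against 1.00) but not by probe 2, which differed by -0.37 with an SD of 1.03. The share of all probes with a difference above their SD was not computed. These counts, from an SD of 2 arrays, therefore do not set the members apart from other probes. Female 2 mg and female 20 mg replicate 1 share slide 1, so the values of that pair hold within a slide. No slide held both doses of the males, and male 2 mg shared a scan day with replicate 2 alone, for which the median was 0.04. Male replicate 1 shared its slide and scan day with the dim array only, so dose and slide cannot be told apart for it.

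**Figure D3:**
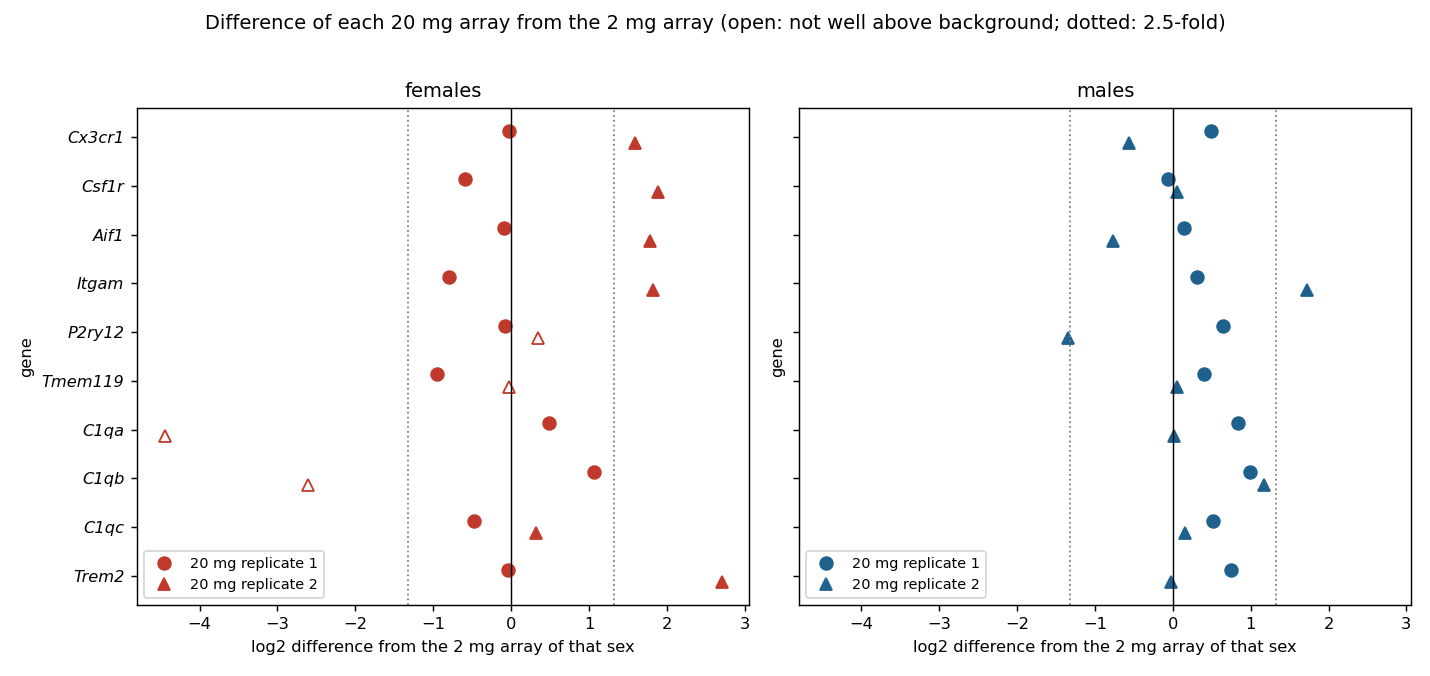
Log2 difference of each 20 mg array from the 2 mg array of its sex for the 10 genes, with circles for replicate 1 and triangles for replicate 2, open where the 20 mg value was not well above background. Dotted lines mark 2.5-fold. C1qb lies near 1 on the 3 bright arrays, and 7 of the 10 triangles of the females, the dim array, lie past 2.5-fold. On that array 18.5% of all probes tested were past 2.5-fold higher and 34.3% lower.

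Ligands and partners of the members, a list of 17 genes, held 16 that were tested. In males 0 were called by the fold rule. Apoe, well above background on all 6 arrays, was past 2.5-fold in the male mean but was not kept by the variation filter. It was 1.97 and 1.05 above the 2 mg array in males (mean 1.51). In females it was 0.47 below on replicate 1 and 1.02 above on the dim array. In females 2 were higher (C1ra and C3ar1, neither well above background on the dim array) and 0 lower, and on replicate 1 alone none was past 2.5-fold. Of all probes tested, 1.95% were past 2.5-fold higher and 3.07% lower on replicate 1. The next genes are named for their roles, with their values known. Of the CSF1R ligands, Csf1 was 0.11 above its 2 mg array on female replicate 1 and 1.48 above on the dim array, and the male arrays lay on both sides, 0.91 above and 0.54 below. Il34 was 0.44 and 2.13 above in females, and 0.77 above and 0.01 below in males. Cx3cl1, fractalkine itself, was 0.10 and 0.12 above in females, and 0.53 above and 0.18 below in males. Tyrobp, the adaptor of TREM2, was 0.27 and 1.32 above in females and 1.16 and 0.32 above in males. The mean differences of Csf1, Il34, Cx3cl1 and Tyrobp did not reach 2.5-fold in either sex, whereas on the dim array alone Csf1, Il34 and Tyrobp did. On that array 18.5% of all probes tested were past 2.5-fold higher and 34.3% lower.

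Of 19 further genes known as enriched in microglia, 18 were tested, and 14 were well above background on all bright arrays. In males 1 was lower by the fold rule, Olfml3, an extracellular matrix protein, at 9.97 at 2 mg and at 6.09 and 11.14 at 20 mg, so its arrays lay on both sides. In females 1 was called higher (Adora3) and 3 lower (Sall1, Olfml3 and Mertk), none of them well above background on the dim array. On replicate 1 alone 0 of the 18 were past 2.5-fold, against 1.95% of all probes tested higher and 3.07% lower. The median difference of these genes was 0.06 and -0.46 on the male arrays, and 0.01 and -0.11 on the female arrays. Of 19 genes shared by macrophages, 16 were tested, with 0 called in males. In females 1 was called higher (Fcgr1) and 5 lower (Fcer1g, Mpeg1, Cyba, Lcp1 and Tlr7). All 6 calls rested on the dim array, where those lower were not well above background, and on replicate 1 the 6 differences ran from -1.21 to 0.29, none past 2.5-fold. Cd53, a tetraspanin of white blood cells, was the 1 gene of these lists past 2.5-fold on both arrays of a sex: it was at 4.77 at 2 mg and at the floor of 3.32 on both female 20 mg arrays, neither of which measured it. Of 9 genes of the amoeboid microglia of newborn white matter, 8 were tested and 0 called in either sex. Of 11 inflammatory genes 4 were tested and 0 called, and Il1a, Il1b and Tnf were well above background on no array. Without the background filter Il1a and Il1b would pass the fold rule as higher in females, by 1.40 and 2.13. Both were at the floor on the female 2 mg array and replicate 1, so these differences rest on the dim array. The paper lists Il1b among the genes higher in female pups.

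**Figure D4:**
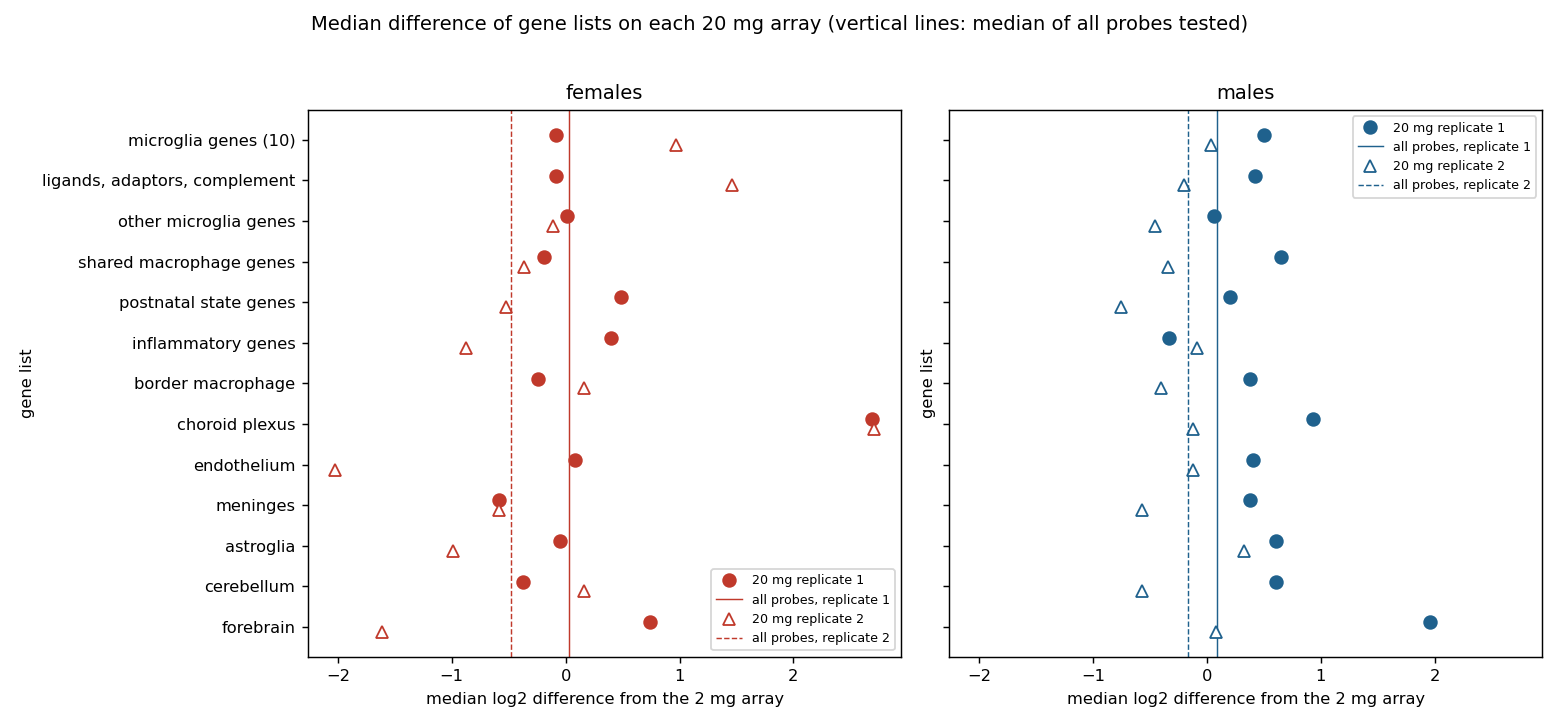
Median log2 difference of gene lists from the 2 mg array of the same sex, circles for 20 mg replicate 1 and open triangles for replicate 2, which in females is the dim array. Vertical lines are the medians of all probes tested. The microglia genes lie at -0.08 and 0.97 in females and at 0.50 and 0.04 in males.

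Other cells share several members. Of 9 markers of macrophages of the brain borders, 8 were well above background on all bright arrays, and Cd163 on none. Their summed linear signal was 3847 at 2 mg and 3314 and 9014 at 20 mg in females, the last on the dim array. There 3 of the 9 markers were well above background. Of the 8 tested, 4 were higher on the dim array, with a median difference of 0.16. The male sums were 4263 at 2 mg and 5408 and 3138 at 20 mg. Of the blood monocyte markers, Ccr2 was well above background on no array. The sum of 10 granulocyte markers was 2305 at 2 mg and 1392 and 2328 at 20 mg in females, and 1773, 1006 and 12367 in males. The last sum came mostly from 1 probe, Elane at 13.53, and the median difference of the tested markers on that array was 0.27. The sum for the choroid plexus, a site of border macrophages, was 3077 at 2 mg and 77110 and 29644 at 20 mg in females, with 7 of 7 markers higher on replicate 1 and 6 of 7 on the dim array. The male sums were 21244, 42841 and 41973, with 6 of 7 markers higher on replicate 1 and 3 of 7 on replicate 2, where the median difference was -0.12. The part of these cells in the values of the microglia genes was not tested.

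The mean of the 10 genes, centred over the 6 arrays, was -0.07 at 2 mg and -0.22 and 0.27 at 20 mg in females. The male means were -0.18 at 2 mg and 0.32 and -0.13 at 20 mg. Itgam enters this mean by its repeat probe, and C1qa by its floor value on the dim array. Of the members themselves, C1qc lay nearest to the pattern of this mean (root mean square distance 0.123 on the log2 scale over the 6 arrays) and C1qa farthest (1.94). Among 17219 probes of other genes well above background on at least 5 arrays, those near it included Mat2a, a methionine adenosyltransferase, at 0.0575, Adrm1, a ubiquitin receptor of the proteasome, at 0.0677, Cttnbp2nl at 0.0684 and Tmem179 at 0.0709. The median distance of these probes was 0.684. Csf1r (0.686), Itgam (0.881), Trem2 (0.903), C1qb (1.54) and C1qa lay farther from the pattern than that median. Cx3cr1 (0.562), Aif1 (0.629), P2ry12 (0.612), Tmem119 (0.260) and C1qc lay nearer. The pattern is thus that of the mean and not one that all members share.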

How the data were processed

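RNA of pooled cerebella was measured on 6 arrays, 1 at 2 mg and 2 at 20 mg FA per sex, grouped by their labels. The authors deposited scanner files in which Agilent Feature Extraction 10.7.3.1 gives each spot's processed intensity, background-subtracted and not scaled between arrays, with mean and background intensities and other deposited flags for outlier and well-above-background spots, which the software scores per spot. The deposited log2 value table was quantile normalized with a floor in BRB-ArrayTools by the authors and serves as an alternative.

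Outlier spots were left out, spots of a probe averaged, and log2 intensities quantile normalized over 6 arrays, with a floor of 10. Probes well above background on at least 2 arrays were tested (37247 of 55681). The fold rule asks for 2.5-fold between the mean at 20 mg and the 2 mg array, among probes whose variance exceeds the median variance (chi-square p at or under 0.05, at most 50% of values missing; 15247 kept). limma 3.58.1 in R 4.3.3 was fitted with 4 groups of sex and dose and a trended prior, with adjustment after Benjamini-Hochberg and a threshold of 0.05. The 2 mg array is assumed to vary like the others. Tested on simulated data of 37247 probes, 200 of them changed by 4 log2 units, the fit found 100% of the changes at a noise SD of 0.2 and 0% at the noise of the arrays, for each sex and over both. The number of arrays limits the precision.

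A gene is represented by its probe with the highest mean. The text names all members, and of each other list up to 4 genes past 2.5-fold the same way on each 20 mg array of a sex and measured above background by all arrays of a dose, other names being given for their role, for a check or after their values were seen. Likeness uses the 5 probes nearest to the mean of members, and a nearest gene and a marker are not reported here. Members, lists and rules were chosen with earlier results of these data known. Of 190 list entries 189 were on the array, 4 of them under older symbols found through RefSeq synonyms. Alternatives were a 75th percentile shift, the floor before normalization, normexp (offset 50), the deposited table, each 20 mg array left out, 5 arrays normalized alone, the median over the probes of a gene, no filters, and slide or scan day as terms. Positions of probes are mm9. Columns of samples outside the study: 0.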

Additional observations from a re-analysis of the deposited data

How the results depend on the processing

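The count of members past 2.5-fold in females was 2 and became 0 after the 75th percentile shift, 0 with normexp, 0 with the 5 arrays normalized alone and 0 within slide 1. It was 3 in the authors' deposited table, with P2ry12 called lower at -1.35 against 0.14 in the main setting. With 1 of the female 20 mg arrays left out it ranged from 0 to 3, being 0 without the dim array (replicate 2) and 3 without replicate 1. Without the dim array the female difference had the other sign for 8 of the 10 genes, all but Tmem119 and C1qc. The called differences changed sign for C1qa to 0.51 (5 arrays normalized alone), 0.48 (without the dim array) and 0.48 (within slide 1), and for Trem2 to -0.041 (5 arrays normalized alone), -0.042 (without the dim array) and -0.042 (within slide 1). Over the female arrays left out in turn, C1qa ranged from -4.45 to 0.48 and Trem2 from -0.042 to 2.70. In males the count was 0 and ranged from 0 to 1 with 1 array left out, the 1 being Itgam by its repeat probe without replicate 1. The median difference of the members was 0.28 in males, 0.04 without replicate 1 and 0.50 without replicate 2, and above 0 under all 9 alternatives. In females it was 0.32 and ranged from -0.09 to 0.97, below 0 under 4 of 10 alternatives (the 5 arrays alone, without the dim array, within slide 1, and the median over probes). Itgam by its probe without the repeat, an alternative chosen after seeing the data, gave a median of 0.11 in males and 0.03 in females. limma called 0 members under every alternative run in each sex, over both sexes and for the interaction, with a smallest adjusted p from 0.512 to 1. With 2 residual degrees of freedom at most, that count does not show that the doses act alike. No paired analysis was possible because the 2 mg group of each sex holds 1 array and carries no replicate number. On the dim array 4 of the 10 genes were not well above background by their brightest probe, which limits the female comparison to 1 array per dose for them. The same holds for Itgam by its probes 2 and 3.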

Other observations

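Of 7 choroid plexus markers, 7 were above the female 2 mg array on female 20 mg replicate 1 and 6 on the dim array, where Kl was at the floor. Ttr, the thyroid hormone carrier of cerebrospinal fluid, was at 11.21 at 2 mg and at 16.16 and 14.59 at 20 mg, and Clic6 was at 7.27, 10.38 and 9.77. Slc4a5 was at 5.06, 7.75 and 10.13 and Folr1, a folate receptor, at 7.26, 9.36 and 10.26. Of 9 endothelial genes, 5 were higher on replicate 1 (median 0.08) and 2 on the dim array (median -2.03). Among them Cdh5 and Kdr were past 2.5-fold lower on both, by 1.84 and 3.37 and by 1.83 and 2.03, and Cdh5 was not well above background on the dim array. In males, of 8 astroglial genes, 6 were higher on replicate 1 (median 0.61) and 5 on replicate 2 (median 0.33), with 0 called by the fold rule. The one past 2.5-fold on both male arrays was Gfap, an astrocyte filament, at 7.24 at 2 mg and 1.84 and 1.76 above that at 20 mg. The limma adjusted p was 1 for each of these 7 genes.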
